A study of Danio rerio with 6 samples.

Results

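The genes described here encode the UDP-glucuronosyltransferases (UGTs) of zebrafish larvae, compared after exposure to water in which tire wear particles (TWP) had been leached. They were taken by name: a symbol starting with ugt and a digit from 1 to 8, or a description that holds both UDP and glucuronosyltransferase. This gave 40 genes of the 24826 in the count table, 14 of the ugt1 family, 8 of ugt2, 16 of ugt5, ugt8, and LOC571561, which is described as a UDP-glucuronosyltransferase 2B20-like gene and was the 1 member found by description alone. The rule used names alone, but the UGT genes were chosen as a subject with earlier results of these data known.

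UGT enzymes sit in the membrane of the endoplasmic reticulum and move glucuronic acid from UDP-glucuronic acid onto small, fat-soluble molecules such as phenols, steroid and thyroid hormones, bile acids, bilirubin and drugs. The glucuronide that results dissolves in water and is pumped out into bile or urine. In mammals the UGT1 genes share their last exons, each gene adding its own first exon, and liver, gut and kidney are their main sites. The ugt5 family is known from fish and has no counterpart in mammals, while ugt8 encodes an enzyme that puts galactose, not glucuronic acid, on ceramide to make a lipid of myelin.

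RNA of 3 pools of wild-type larvae exposed to the TWP 700 leachate was compared with that of 3 pools kept in surfactant control medium that held 0.001% bovine serum albumin. Whether the leachate medium held albumin is not stated in the labels. The number 700 is a treadwear grade in the sample titles but a concentration in the design text, and is used as a name. Exposure ran from 4 to 168 h after fertilization at 200 eggs per dish, with a move to clean dishes at 72 h, and 80 larvae were pooled per sample. The pools are described as biological replicates. Pools are called TWP 700 pool 1 to 3 and control pool 1 to 3 by the number in their labels.

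The deposited counts summed to between 37460304 and 42773836 in the TWP 700 pools and between 37030725 and 48431952 in the control pools. Of all 23761 genes tested, 15.2% passed the test, 7.87% higher and 7.29% lower in the TWP 700 pools. In numbers these were 1871 higher and 1731 lower, and scaling by library totals alone gave 2809 higher and 868 lower over all genes, with 22 UGT genes higher. Control pool 2 and TWP 700 pool 1 stood apart from the other pools of their groups on the second principal component, so counts of UGT genes are also given without this pair. Levels are CPM, counts relative to TMM-scaled library sizes, which compare a gene between pools, or TPM, the deposited abundances per transcript length, which compare genes with each other. A log2 value is the fold change of TWP 700 over control with its standard error, and a gene was called at an adjusted p under 0.05 (edgeR, quasi-likelihood test, adjusted over all genes). The pools hold whole larvae, so fewer cells of a type and less RNA per cell cannot be told apart.

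UGT genes were higher in the exposed larvae in all 3 large families. Of the 40 genes, 38 had enough reads to be tested, and 17 of these were called higher, against 7.87% of all genes tested. None was called lower by edgeR, DESeq2 or limma-voom, and 2 lay lower at an unadjusted p under 0.05. The log2 fold change was above 0 in 33 of the 38 genes, its median was 0.55, and the median of all genes tested was -0.0026. By family, 5 of 12 tested ugt1 genes, 4 of 8 ugt2 genes, 7 of 16 ugt5 genes and ugt8 were called. Among those 7 is ugt5g2, which passed the filter on low counts only through the TWP 700 pools. Of the 17, 10 were higher by 2-fold or more, against 2.19% of all genes tested, and no UGT gene was called lower by that margin, against 1.41%. The pools of the groups did not overlap in 21 genes with TWP 700 above and in 2 with TWP 700 below, against 17.9% and 17.1% of all genes tested, 35.1% in either direction. The filter on low counts was reached in all pools of both groups by 36 of the genes, by ugt5g2 in the TWP 700 pools alone and by ugt1b3 in the control pools alone. Of those 36 UGT genes 16 were called higher, 9 of them by 2-fold or more. Among the 22564 genes of the whole table that reached it in both groups, 8.15% were called higher, 489 genes by 2-fold or more.

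Leaving out 1 pool at a time gave between 13 and 18 UGT genes called higher, ugt5g2 among them each time. Without control pool 2 and TWP 700 pool 1 together, 17 were called higher, 15 of them among the original 17. A set of 12 genes was called under every one of the 17 alternatives of processing or pool choice: ugt1a1, ugt1a5, ugt1a7, ugt1ab, ugt2b1, ugt2b3, ugt5a1, ugt5a2, ugt5a4, ugt5b1, ugt5d1 and ugt5g2, or 11 without ugt5g2. The calls of ugt1b5, ugt2a1, ugt2a4, ugt5b4 and ugt8 were lost in at least 1, that of ugt2a1 only at the stricter threshold of 0.01. Another 7 genes were called higher only under 1 or more alternatives: LOC571561, ugt1a2, ugt1a4, ugt1a6, ugt1b1, ugt1b2 and ugt5c3. Without TWP 700 pool 3, 1 gene, ugt1b7, was called lower (adjusted p = 0.0352 by edgeR, log2 -1.32).

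**Figure D1:**
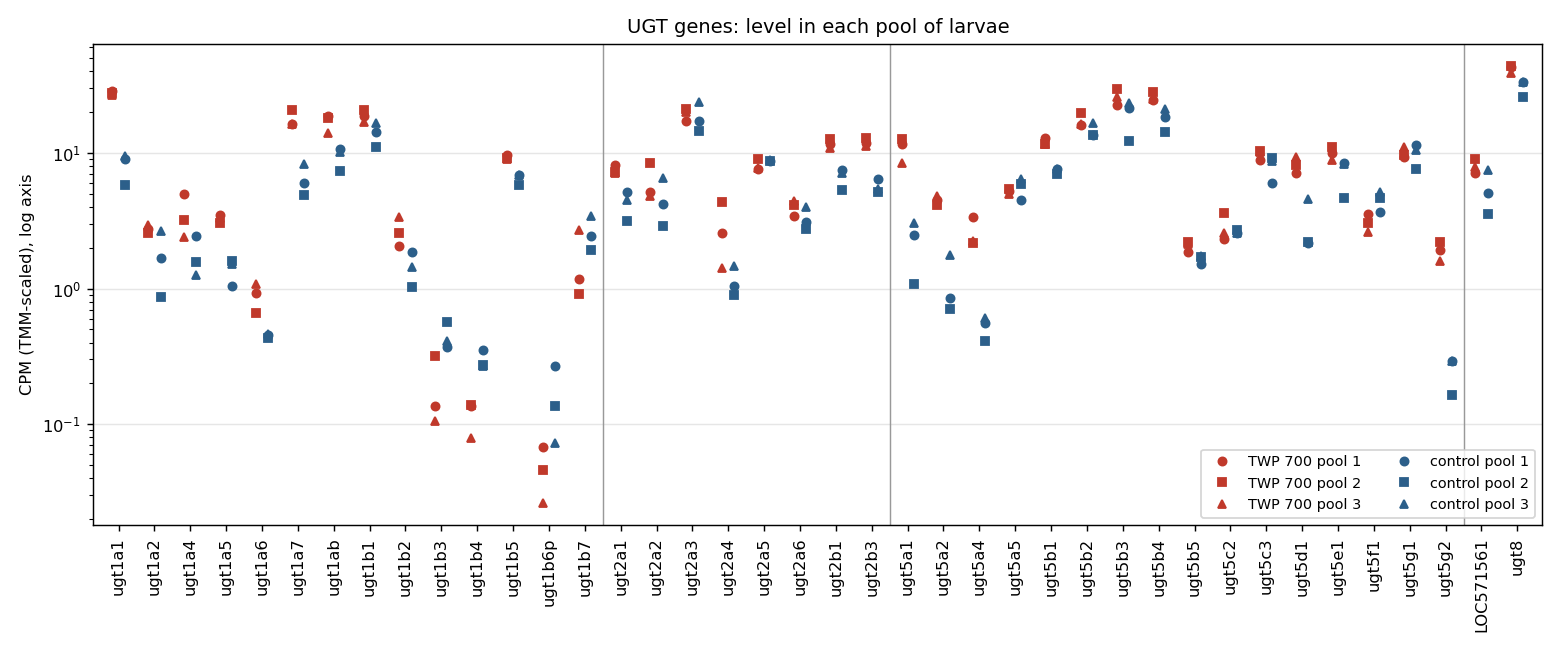
Level of each of the 40 UGT genes in the 6 pools, in TMM-scaled CPM on a log axis, with TWP 700 pools in red to the left of control pools in blue and vertical lines between ugt1, ugt2, ugt5 and the remaining genes. The pools separate most widely in ugt5g2 (1.60 to 2.22 against 0.163 to 0.291 CPM), ugt5a1, ugt5a2, ugt5a4 and ugt1a1.

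**Figure D2:**
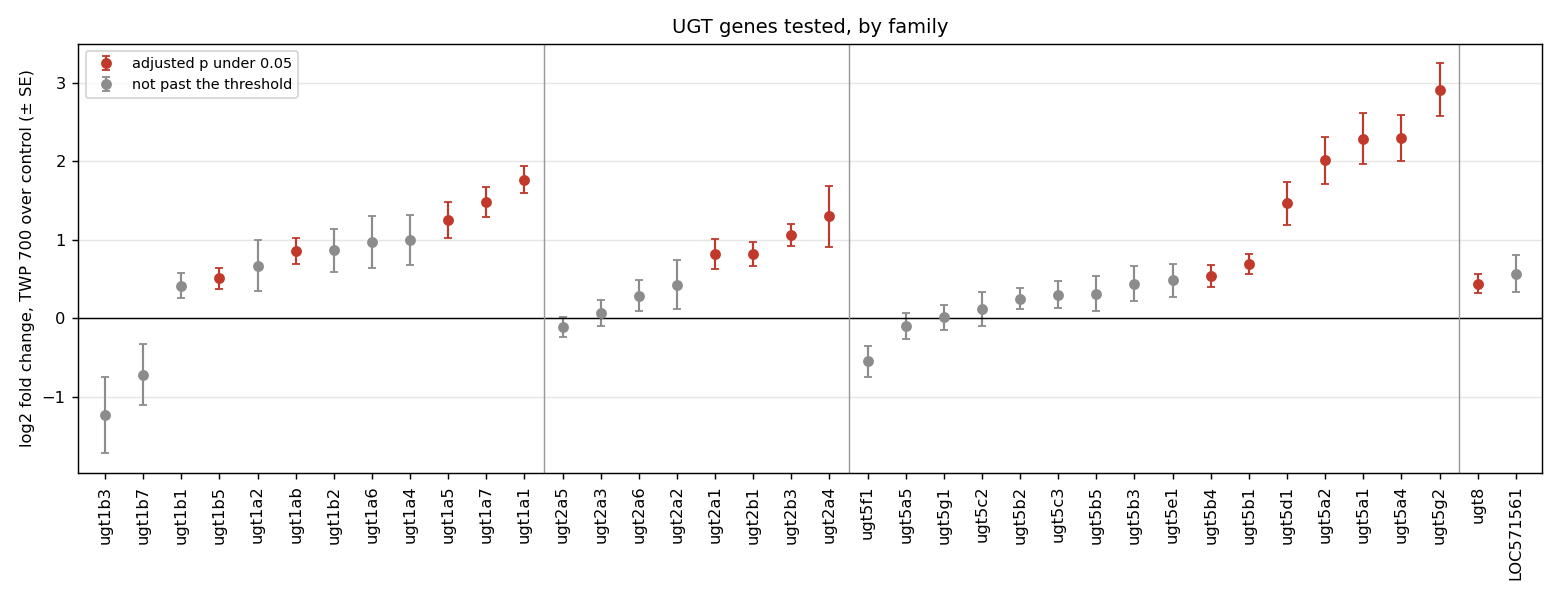
Log2 fold change of TWP 700 over control with its SE for the 38 UGT genes tested, sorted within ugt1, ugt2, ugt5 and the remaining genes, red where the adjusted p was under 0.05. The 17 red points all lie above 0 and are spread over all families.

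Many of the UGT genes lie in runs of neighbours, and 9 stand alone. In the RefSeq gene table of the assembly GRCz12tu, which is another build than the GRCz11 named in the submitters' processing notes and serves here only for gene order, 38 of the 40 genes were found by gene ID. The 7 ugt1b genes stood side by side, as did ugt1a1, ugt1a2, ugt1ab, ugt1a4, ugt1a5, ugt1a6 and ugt1a7. Runs of this kind also held ugt2a1 to ugt2a4, the ugt5a genes and the ugt5b genes. A further run held ugt2b1, ugt2b2p, ugt2b4p, ugt2b5 and ugt2b6, of which only ugt2b1 is in the count table. That table lists 45 UGT genes, and 7 are not in the count table. These, ugt2b2p, ugt2b4p, ugt2b5, ugt2b6, ugt5a3, ugt5b6 and ugt5c1, were not analysed here. Genes of 1 run may share exons or near-identical sequence, so how reads were split among them is uncertain. By position, each gene of the ugt1a run overlapped the next, as did most neighbours in the ugt1b, ugt2a and ugt5b runs. Calls of neighbours may therefore not be separate observations, also in the counts over all UGT genes. Sums are given beside the members. The ugt2a sum also holds ugt2a5, which stands alone, and ugt2a6, whose place was not found.

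Of the 7 genes of the ugt1a run 4 were called higher, against 7.87% of all genes tested. Summed over its 7 genes, the level was 58.8, 49.3 and 43.4 TPM in TWP 700 pools 1 to 3, against 20.6, 14.3 and 18.4 TPM in control pools 1 to 3. The sums did not overlap, and their ratio was 2.84 in TPM and 2.50 in TMM-scaled CPM. TPM was not scaled between groups beyond the authors' own normalization, and over all genes tested the median log2 ratio of group means was 0.17 in TPM. The run made up 21.5 ± 1.2% of the summed UGT TPM in the TWP 700 pools and 13.3 ± 0.7% in the control pools (SD, n = 3 each). All 7 genes had a log2 fold change above 0, and 4 were called, but neighbours in this run overlap and may share reads.

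The gene ugt1a1, whose human namesake conjugates bilirubin, was at 28.8, 27.9 and 26.6 CPM in the TWP 700 pools, against 9.07, 5.83 and 9.53 CPM in the control pools. The exposed pools lay close together and all far above the controls, a log2 fold change of 1.77 ± 0.17 (adjusted p = 1.08e-04). By mean TPM it ranked first of the UGT genes in the TWP 700 pools, where ugt5b3 was higher in pools 2 and 3, and ninth in the control pools. At the other end of the run, ugt1a7 was at 16.3, 20.8 and 16.5 CPM in the TWP 700 pools, against 5.98, 4.93 and 8.24 CPM in the control pools (log2 1.48 ± 0.19, adjusted p = 5.78e-04). Its groups did not overlap either.

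The gene ugt1a5 was less abundant. For it the TWP 700 pools had 3.51, 3.03 and 3.34 CPM and the control pools 1.04, 1.61 and 1.53 CPM (log2 1.25 ± 0.23, adjusted p = 0.00477). The gene named ugt1ab, which lies within the run, had 18.8, 18.2 and 14.1 CPM in the TWP 700 pools and 10.7, 7.41 and 10.1 CPM in the control pools (log2 0.85 ± 0.17, adjusted p = 0.00597). In both, every exposed pool was above every control pool. The remaining genes of the run did not pass: ugt1a4 (log2 1.00 ± 0.31, adjusted p = 0.0554), ugt1a6 (log2 0.97 ± 0.33, adjusted p = 0.0717) and ugt1a2 (log2 0.67 ± 0.33, adjusted p = 0.20). Of these, ugt1a6 had no more than 1.08 CPM in any pool. Their calls came and went with the setting: ugt1a4 passed under 5 of 17 alternatives, ugt1a2 under 1 of 17 and ugt1a6 under 1 of 16. As a share of the run's TPM, ugt1a1 held 36.6 ± 1.6% in the TWP 700 pools and 26.5 ± 1.6% in the control pools, and ugt1ab 22.8 ± 1.9% and 31.8 ± 2.2%.

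The ugt1b run held fold changes on both sides of 0. Its summed level was 26.4, 23.3 and 22.3 TPM in the TWP 700 pools, against 18.7, 14.0 and 17.1 TPM in the control pools, a ratio of 1.45 in TPM and 1.28 in CPM with no overlap in TPM or CPM. As a share of it, ugt1b1 held 59.3 ± 4.52% in the TWP 700 pools and 56.5 ± 2.12% in the control pools, and ugt1b5 held 26.2 ± 1.63% in the TWP 700 pools and 23.7 ± 2.08% in the control pools. Of the 5 genes tested, ugt1b5 alone was called, at 9.68, 9.13 and 9.01 CPM in the TWP 700 pools, against 6.87, 5.80 and 6.86 CPM in the control pools (log2 0.51 ± 0.14, adjusted p = 0.0271). Its pools did not overlap, but its call was lost without any 1 of the 6 pools, with an adjusted p of at most 0.0751. The most abundant gene of the run, ugt1b1, was at 18.8 ± 1.84 CPM in the TWP 700 pools and 14.1 ± 2.87 CPM in the control pools (log2 0.42 ± 0.16, adjusted p = 0.0946).

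The other ugt1b genes were scarce. The gene ugt1b2 was at 2.05, 2.57 and 3.36 CPM in the TWP 700 pools, against 1.85, 1.03 and 1.45 CPM in the control pools (log2 0.86 ± 0.28, adjusted p = 0.0582). The remaining 4 had lower mean levels in the exposed larvae, and none was called. The gene ugt1b3 had 6, 14 and 4 reads in TWP 700 pools 1 to 3, against 18, 21 and 17 reads in control pools 1 to 3 (log2 -1.23 ± 0.49, adjusted p = 0.113). It passed the filter through the control pools. The genes ugt1b4, with 6, 6 and 3 reads in the TWP 700 pools against 17, 10 and 11 in the control pools, and the transcribed pseudogene ugt1b6p, with 3, 2 and 1 reads in the TWP 700 pools against 13, 5 and 3 in the control pools, had too few reads to be tested. For ugt1b7 the TWP 700 pools had 1.17, 0.917 and 2.71 CPM and the control pools 2.43, 1.93 and 3.44 CPM (log2 -0.72 ± 0.39, adjusted p = 0.257). Its exposed pool 3 lay within the range of the controls, and the gene was called when that pool was left out. The sum of these 4 genes was 1.44 ± 0.552 TPM in the TWP 700 pools and 2.32 ± 0.275 TPM in the control pools, with overlap.

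**Figure D3:**
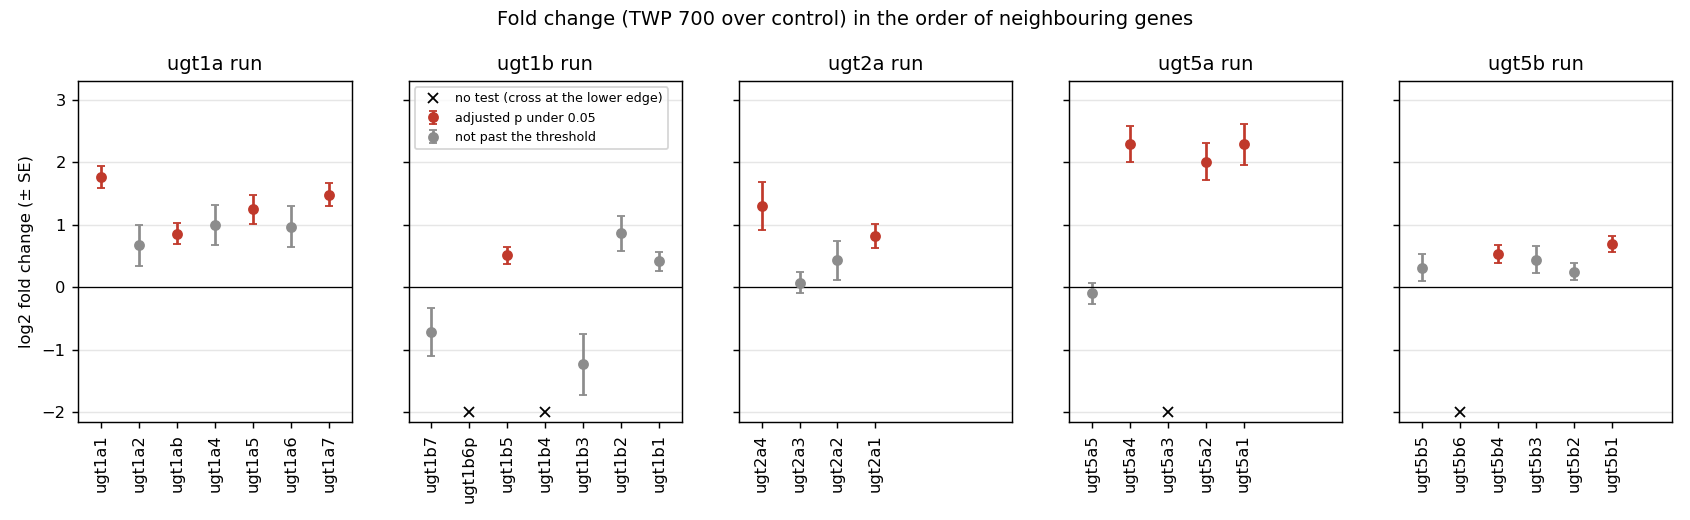
Log2 fold change of TWP 700 over control with its SE for UGT genes in the order in which they neighbour each other in the RefSeq table of GRCz12tu, 1 panel per run; positions along the axis are ranks, not distances, and a cross at the lower edge marks a gene with no test. All 7 genes of the ugt1a run lie above 0, the ugt1b run holds values on both sides of 0, and in the ugt5a run ugt5a5 lies at -0.10 beside 3 genes at 2.01 to 2.29.

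In the ugt2 family both ugt2b genes and 2 of the 6 ugt2a genes were called higher, against 7.87% of all genes tested. The gene ugt2b3 was at 11.8, 12.9 and 11.2 CPM in the TWP 700 pools, against 6.46, 5.20 and 5.43 CPM in the control pools (log2 1.07 ± 0.14, adjusted p = 6.65e-04). Its partner in name ugt2b1 was at 11.6, 12.7 and 10.9 CPM in the TWP 700 pools, against 7.45, 5.36 and 7.13 CPM in the control pools (log2 0.82 ± 0.15, adjusted p = 0.00487). The 2 genes had nearly the same level in each exposed pool, and for both the exposed pools lay clear of the controls. Their sum was 18.1 ± 2.09 TPM in the TWP 700 pools and 8.38 ± 1.54 TPM in the control pools, a ratio of 2.16 in TPM and 1.92 in CPM. This sum does not cover the other genes of the ugt2b1 run, which are not in the count table. The place of ugt2b3 in the gene order was not found, so how reads were split among ugt2b genes is uncertain.

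Of the called ugt2a genes, ugt2a1 was at 8.20, 7.25 and 7.09 CPM in the TWP 700 pools, against 5.13, 3.13 and 4.48 CPM in the control pools (log2 0.82 ± 0.19, adjusted p = 0.0148). Its groups did not overlap. The other, ugt2a4, was at 2.59, 4.38 and 1.42 CPM in the TWP 700 pools, against 1.04, 0.898 and 1.48 CPM in the control pools (log2 1.30 ± 0.38, adjusted p = 0.0461). Here TWP 700 pool 3 lay below control pool 3, and the call was lost without control pool 1, 2 or 3 or TWP 700 pool 1 or 2 and with limma-voom. The most abundant ugt2 gene, ugt2a3, was at 19.5 ± 2.02 CPM in the TWP 700 pools and 18.6 ± 4.65 CPM in the control pools (log2 0.07 ± 0.17, adjusted p = 0.831). The gene ugt2a5 had a log2 fold change of -0.11 ± 0.13 (adjusted p = 0.633), ugt2a6 of 0.29 ± 0.20 (adjusted p = 0.378) and ugt2a2 of 0.43 ± 0.32 (adjusted p = 0.417). Summed over all 6 ugt2a genes, not the run alone, the level was 30.3 ± 2.68 TPM in the TWP 700 pools and 22.6 ± 2.87 TPM in the control pools. The ratio was 1.34, and in CPM the ratio was 1.19 and the groups overlapped.

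The ugt5 family held 7 genes called higher, ugt5g2 among them, and 9 not called, and of all genes tested 7.87% were called higher. The largest fitted fold change was that of ugt5g2, with 85, 97 and 61 reads in TWP 700 pools 1 to 3, against 14, 6 and 12 reads in control pools 1 to 3. That is 1.91, 2.22 and 1.60 CPM in the TWP 700 pools, against 0.291, 0.163 and 0.291 CPM in the control pools, a 7.54-fold difference (log2 2.91 ± 0.33, adjusted p = 2.78e-04). The gene was scarce in every pool and passed the filter on low counts through the TWP 700 pools, the group in which it was higher, so its test is no support beyond these counts. The other ugt5g gene, ugt5g1, lies elsewhere in the gene order and was at 10.0 ± 0.925 CPM in the TWP 700 pools and 9.93 ± 2.03 CPM in the control pools (log2 0.01 ± 0.16, adjusted p = 0.974).

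In the ugt5a run 3 of 4 genes were called, each about 4-fold or more higher. Of all genes tested 7.87% were called higher, and 2.19% were called higher by 2-fold or more. The gene ugt5a1 was at 11.6, 12.6 and 8.41 CPM in the TWP 700 pools, against 2.49, 1.09 and 3.05 CPM in the control pools (log2 2.29 ± 0.32, adjusted p = 0.00265). For ugt5a2 the TWP 700 pools had 4.48, 4.15 and 4.83 CPM and the control pools 0.851, 0.708 and 1.77 CPM (log2 2.01 ± 0.30, adjusted p = 0.00155). The groups were far apart in both genes. For ugt5a4 the TWP 700 pools had 3.35, 2.18 and 2.26 CPM and the control pools 0.561, 0.408 and 0.606 CPM (log2 2.29 ± 0.29, adjusted p = 5.66e-04). Next to ugt5a4 in the run, ugt5a5 had 5.27, 5.43 and 4.97 CPM in the TWP 700 pools, within the range of the control pools at 4.51, 5.94 and 6.38 CPM (log2 -0.10 ± 0.17, adjusted p = 0.75). The gene ugt5a5 held 20.8, 21.7 and 24.1% of the run's TPM in the TWP 700 pools, against 53.0, 73.1 and 54.0% in the control pools, while ugt5a1 held 49.4 ± 5.3% in the TWP 700 pools and 24.6 ± 9.0% in the control pools. The summed ugt5a level was 17.4 ± 3.34 TPM in the TWP 700 pools and 6.08 ± 0.714 TPM in the control pools, a ratio of 2.86 in TPM and 2.45 in CPM.

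Of the 5 ugt5b genes 2 were called higher, against 7.87% of all genes tested. The ugt5b run had the highest mean summed TPM of the runs in both groups. In the TWP 700 pools the ugt1a run, at 50.5 ± 7.78 TPM, did not differ from it beyond the spread and was higher in pool 1. The ugt5b genes summed to 56.4, 55.5 and 49.2 TPM in the TWP 700 pools, against 39.2, 29.3 and 36.9 TPM in the control pools, a ratio of 1.53 in TPM and 1.37 in CPM without overlap. The gene ugt5b1 was at 12.8, 11.7 and 11.6 CPM in the TWP 700 pools, against 7.68, 7.00 and 7.64 CPM in the control pools (log2 0.69 ± 0.12, adjusted p = 0.00408). It had a narrow spread in both groups. For ugt5b4 the TWP 700 pools had 24.5, 28.4 and 24.8 CPM and the control pools 18.3, 14.2 and 21.0 CPM (log2 0.54 ± 0.14, adjusted p = 0.0287), and the call was lost without control pool 1 or TWP 700 pool 2 or 3. The gene ugt5b3, first by mean TPM in the control pools, was at 22.6, 29.5 and 26.0 CPM in the TWP 700 pools, against 21.5, 12.4 and 23.6 CPM in the control pools (log2 0.44 ± 0.22, adjusted p = 0.224). Control pool 2 lay far below the other controls, and control pool 3 lay above TWP 700 pool 1. Neither ugt5b2 (log2 0.25 ± 0.13, adjusted p = 0.246) nor the transcribed pseudogene ugt5b5 (log2 0.31 ± 0.22, adjusted p = 0.385) passed.

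Of the remaining ugt5 genes, which stand alone in the gene order except ugt5c2 beside ugt5c1, ugt5d1 rose. It was at 7.07, 8.16 and 9.38 CPM in the TWP 700 pools, against 2.16, 2.21 and 4.56 CPM in the control pools (log2 1.46 ± 0.28, adjusted p = 0.00665), without overlap. The others, ugt5c2, ugt5c3, ugt5e1 and ugt5f1, did not pass, with log2 fold changes between -0.55 and 0.48. Among these ugt5f1 lay lower, at 3.53, 3.05 and 2.63 CPM in the TWP 700 pools, against 3.70, 4.66 and 5.14 CPM in the control pools (log2 -0.55 ± 0.20, adjusted p = 0.0868). The gene LOC571561 was at 7.99 ± 0.958 CPM in the TWP 700 pools and 5.38 ± 1.96 CPM in the control pools (log2 0.57 ± 0.23, adjusted p = 0.132).

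**Figure D4:**
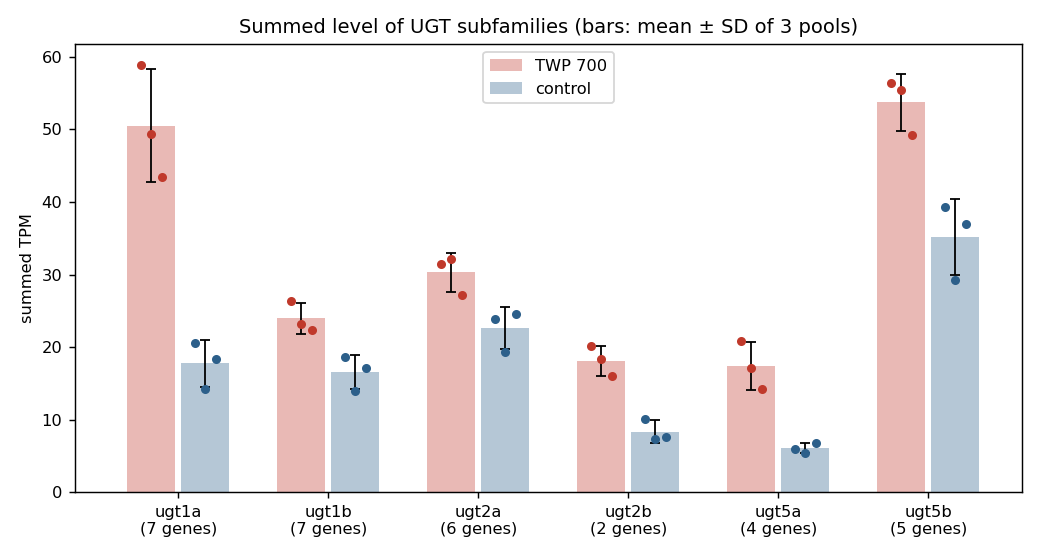
Summed TPM of 6 UGT subfamilies, with bars at the mean and error bars of 1 SD over 3 pools, each pool a point, TWP 700 in red left of control in blue. The ugt1a genes sum to 50.5 ± 7.78 TPM in the TWP 700 pools and 17.8 ± 3.20 TPM in the control pools. In TPM the groups do not overlap in any of the 6 subfamilies. In CPM the ugt2a sums overlap, at 44.1 to 54.3 CPM in the TWP 700 pools and 33.1 to 49.1 CPM in the control pools.

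Summed over all 40 genes, UGT transcripts were at 258, 236 and 210 TPM in the TWP 700 pools, against 147, 113 and 139 TPM in the control pools, a ratio of 1.76 in TPM and 1.52 in CPM. The ugt1 genes made up 31.7 ± 1.2% of this in the TWP 700 pools and 25.7 ± 0.9% in the control pools, the ugt2 genes 20.7 ± 0.7% and 23.3 ± 0.2%, and the ugt5 genes 40.5 ± 0.6% and 43.1 ± 1.0%, each over 3 pools with the SD. The order of single genes by TPM differed between the groups. In the TWP 700 pools ugt1a1 (18.4 ± 2.64 TPM) and ugt5b3 (18.3 ± 1.13 TPM) came first and did not differ beyond their spread, followed by ugt5b4, ugt1b1, ugt5b2 and ugt1a7 at 13.2 to 14.4 TPM. In the control pools ugt5b3 (11.9 ± 3.44 TPM), ugt5b2 (10.1 ± 0.352 TPM), ugt2a3 (9.92 ± 1.65 TPM), ugt1b1 (9.39 ± 1.48 TPM) and ugt5b4 (8.78 ± 1.31 TPM) came first, each within the spread of the next, though ugt5b2 and ugt2a3 exceeded ugt5b3 in control pool 2. The gene ugt5a1 was at rank 12 in the TWP 700 pools and at rank 26 in the control pools.

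The lipid enzyme gene ugt8 was called higher, and 3 genes of myelin were called lower. It was at 43.0, 43.9 and 39.0 CPM in the TWP 700 pools, against 33.5, 26.0 and 33.2 CPM in the control pools (log2 0.44 ± 0.12, adjusted p = 0.0337). The groups did not overlap, but the call was lost without control pool 1 or TWP 700 pool 1, 2 or 3. Of 11 myelin marker genes 3 were called lower, against 7.29% of all genes tested, and none higher by edgeR, DESeq2 or limma-voom, with 0 higher at an unadjusted p under 0.05. These were mpz (log2 -1.02 ± 0.18), plp1b (log2 -0.94 ± 0.10) and mbpa (log2 -0.53 ± 0.12), with an adjusted p of at most 0.0159, and the call of mbpa was lost without control pool 1 or TWP 700 pool 3. The summed level of the list was between 370 and 394 CPM in the TWP 700 pools and between 486 and 493 CPM in the control pools. Its median log2 fold change was -0.093, with 8 genes below 0 and 3 above, the highest at 0.49.

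Of 11 genes listed around UDP-glucuronic acid supply, 4 were called higher (pgm2, ugdh, gale and slc35d1b), against 7.87% of all genes tested. None was called lower by any of the 3 tools, with 0 lower at an unadjusted p under 0.05. Of the 4, only ugdh encodes the enzyme that makes UDP-glucuronic acid, and the listed uxs1 encodes one that uses it up. The gene ugdh, whose enzyme oxidizes UDP-glucose to UDP-glucuronic acid, was at 25.2, 26.6 and 22.3 CPM in the TWP 700 pools, against 11.4, 7.51 and 12.3 CPM in the control pools (log2 1.24 ± 0.17, adjusted p = 9.88e-04). Every exposed pool lay above every control. The epimerase gene gale, whose enzyme interconverts UDP-glucose and UDP-galactose, rose as well (10.7 ± 1.34 CPM in the TWP 700 pools and 5.21 ± 1.17 CPM in the control pools, log2 1.03 ± 0.18, adjusted p = 0.00314). The genes for the enzyme one step before ugdh, ugp2a (log2 -0.21 ± 0.25, adjusted p = 0.645) and ugp2b (log2 -0.11 ± 0.12, adjusted p = 0.603), did not pass. TWP 700 pool 1 set ugp2a apart, at 40.0 CPM against 22.0 and 22.1 CPM in the other exposed pools and 28.3 to 39.4 CPM in the control pools, and without it ugp2a was called lower (adjusted p = 0.0439).

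Of 7 genes listed for the removal of glucuronides and the turnover of glucuronate, 2 were called lower, against 7.29% of all genes tested, and 0 higher by all 3 tools, with 0 higher at an unadjusted p under 0.05. The beta-glucuronidase gene gusb was at 10.4 ± 0.873 CPM in the TWP 700 pools and 10.4 ± 1.78 CPM in the control pools (log2 0.01 ± 0.15, adjusted p = 0.974). The oxygenase gene miox, whose enzyme makes glucuronate from inositol and does not break it down, fell (log2 -0.62 ± 0.11, adjusted p = 0.00404), as did glyctk (log2 -0.48 ± 0.13, adjusted p = 0.0333), whose call was lost without any 1 pool other than control pool 2. Among 15 genes that add glucuronic acid to sugar chains of the matrix, 2 (13.3%) were called higher, against 7.87% of all genes tested, b3gat3 (log2 0.78 ± 0.19, adjusted p = 0.0204) and chsy1 (log2 0.45 ± 0.13, adjusted p = 0.0411), and 0 lower by all 3 tools, with 0 at an unadjusted p under 0.05. Of these 15 genes 0 were called higher without control pool 1 or TWP 700 pool 2 or 3, and 1 without control pool 3 or TWP 700 pool 1.

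Genes listed for heme breakdown, which yields the bilirubin that UGT1 enzymes conjugate in mammals, were called in both directions. The heme oxygenase genes hmox1a (log2 -1.03 ± 0.12, adjusted p = 2.59e-04), hmox2a (log2 -0.53 ± 0.13, adjusted p = 0.0164) and hmox2b (log2 -0.53 ± 0.14, adjusted p = 0.027) fell. The biliverdin reductase genes blvra (log2 0.85 ± 0.16, adjusted p = 0.00512) and blvrb (log2 0.44 ± 0.12, adjusted p = 0.0343) rose. In mammals the enzyme of blvra acts on the next step, which makes bilirubin, and that of blvrb is mainly a flavin reductase. In CPM, blvra was at 8.08, 9.26 and 10.1 in the TWP 700 pools, against 4.24, 5.61 and 5.38 in the control pools. Among all genes tested 7.87% were called higher and 7.29% lower. These 5 were all the genes of that list in the table. The groups did not overlap in any of them, and in 35.1% of all genes tested in either direction. The count of lower genes was 1 without control pool 1 or TWP 700 pool 2, and that of higher genes was 1 without control pool 1 or 2 or TWP 700 pool 2 or 3.

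Of 16 genes listed for efflux pumps, 8 were called higher and 2 lower, against 7.87% and 7.29% of all genes tested. The 8 were abcc2, abcc4, abcg2b, abcg2d, abcb4, abcb5, abcb11a and abcb11b, and not all are known to carry glucuronides. With 1 pool left out the count was 5 to 7 higher, at 5 without TWP 700 pool 2. It was 1 lower without control pool 1, 2 or 3 or TWP 700 pool 3 and 0 without TWP 700 pool 2. The gene abcc2, whose human counterpart carries glucuronides into bile, was at 133, 138 and 131 CPM in the TWP 700 pools, against 72.7, 59.0 and 83.9 CPM in the control pools (log2 0.90 ± 0.14, adjusted p = 0.00169). The exposed pools were nearly alike and above every control. The largest rises were in abcg2b (8.44, 7.80 and 10.1 CPM in the TWP 700 pools, against 1.81, 2.23 and 1.36 CPM in the control pools, log2 2.29 ± 0.21, adjusted p = 7.31e-05) and abcg2d (log2 1.00 ± 0.22, adjusted p = 0.0124, lost without TWP 700 pool 2). Those called lower were abcc6b.2 (log2 -1.05 ± 0.23, adjusted p = 0.0116, lost without TWP 700 pool 2) and abcc1 (log2 -0.44 ± 0.13, adjusted p = 0.0472). The call of abcc1 was lost under 10 of 17 alternatives, among them limma-voom and leaving out any 1 pool other than TWP 700 pool 1.

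Sulfotransferases and glutathione transferases attach other groups to similar molecules. Of 18 cytosolic sulfotransferase genes 4 were called higher, against 7.87% of all genes tested, 6 with DESeq2 or limma-voom and 7 with library totals, led by sult3st4 (log2 1.70 ± 0.21, adjusted p = 4.09e-04) and sult1st6 (log2 1.07 ± 0.13, adjusted p = 3.22e-04), and sult1st4 was called lower (log2 -1.05 ± 0.19, adjusted p = 0.00466). Of 20 glutathione transferase genes 7 were called higher, against 7.87% of all genes tested, led by gstp2 (log2 1.98 ± 0.20, adjusted p = 1.52e-04) and gsto2 (log2 1.16 ± 0.15, adjusted p = 5.66e-04). None of these 20 was called lower by the main edgeR test or limma-voom, 1 was by DESeq2, and 1 lay lower at an unadjusted p under 0.05. With RLE scaling, upper quartile scaling or the filter of 1 CPM in 3 samples, edgeR called 1 lower. The count of higher glutathione transferase genes was 4 without control pool 1 or TWP 700 pool 2 or 3, and 1 was called lower without control pool 2 and 2 without control pool 2 and TWP 700 pool 1 together. The median log2 fold change was 0.22 in the sulfotransferase list and 0.37 in the glutathione transferase list, against 0.55 in the UGT genes tested. Whether the lists differ was not tested.

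**Figure D5:**
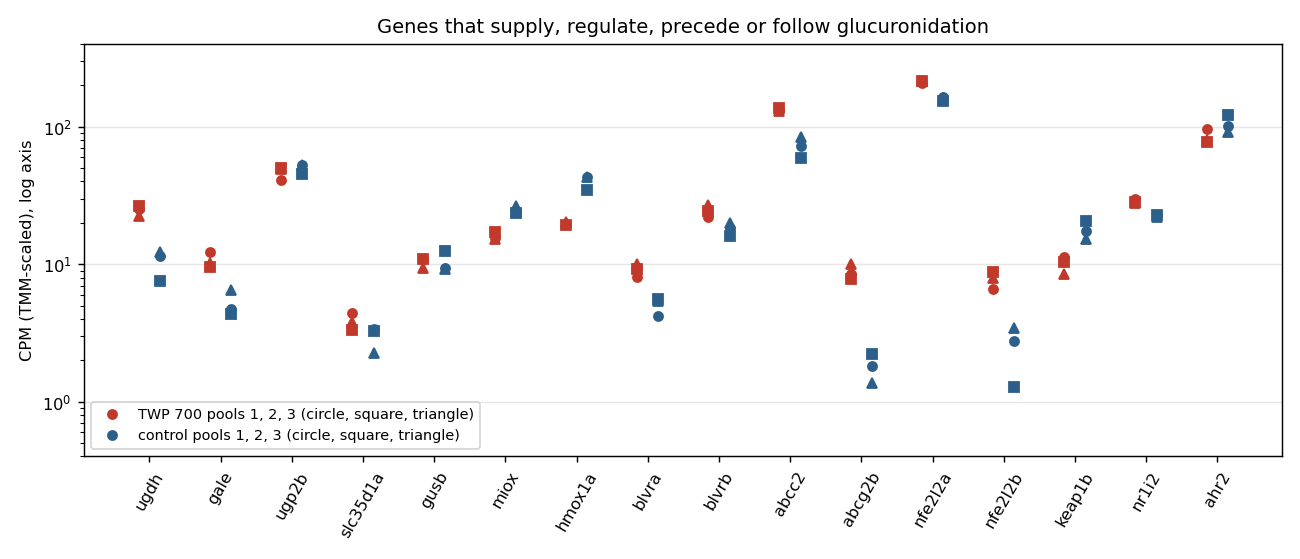
Level of 16 genes that supply, precede, regulate or follow glucuronidation in the 6 pools, in TMM-scaled CPM on a log axis, with TWP 700 pools in red left of control pools in blue. The groups are apart in ugdh, gale, miox, hmox1a, blvra, blvrb, abcc2, abcg2b, nfe2l2a, nfe2l2b, keap1b and nr1i2. They overlap in ugp2b, slc35d1a, gusb and ahr2. The plotted genes are a choice from the lists, and keap1a is not among them.

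Of 27 genes for transcription factors and partners that control UGT genes in mammals, 3 (11.1%) were called higher and 5 lower, against 7.87% and 7.29% of all genes tested. The Nrf2 genes nfe2l2b, at 6.60, 8.71 and 7.96 CPM in the TWP 700 pools, against 2.78, 1.28 and 3.42 CPM in the control pools (log2 1.63 ± 0.29, adjusted p = 0.00556), and nfe2l2a, at 210, 215 and 217 CPM in the TWP 700 pools, against 164, 154 and 163 CPM in the control pools (log2 0.42 ± 0.12, adjusted p = 0.0337), rose. The gene keap1b, which encodes a partner that holds Nrf2 back, fell (log2 -0.82 ± 0.15, adjusted p = 0.00484). Its more abundant paralogue keap1a was at 26.3, 28.6 and 31.6 CPM in the TWP 700 pools, against 25.6, 25.4 and 22.3 CPM in the control pools, without overlap (log2 0.24 ± 0.11, adjusted p = 0.19), and was called higher without control pool 2 and TWP 700 pool 1 together (adjusted p = 0.0376 by edgeR). The pregnane X receptor gene nr1i2 was at 29.9, 28.4 and 27.7 CPM in the TWP 700 pools, against 22.8, 23.0 and 22.1 CPM in the control pools (log2 0.34 ± 0.10, adjusted p = 0.042). The call of nr1i2 was lost without any 1 pool other than control pool 2, and that of nfe2l2a without control pool 1 or 3 or TWP 700 pool 2 or 3. The aryl hydrocarbon receptor gene ahr2 did not pass (log2 -0.30 ± 0.14, adjusted p = 0.17), and without control pool 2 and TWP 700 pool 1 together it was called lower (adjusted p = 0.0427 by edgeR). Its relative ahr1b (log2 -0.55 ± 0.12, adjusted p = 0.0133) and the partner gene arnt2 (log2 -0.44 ± 0.10, adjusted p = 0.0132) were called lower, and both calls were lost without control pool 1 or TWP 700 pool 2 and with library totals. The factor gene hnf1bb was called lower too (log2 -0.66 ± 0.15, adjusted p = 0.0114), a call lost without TWP 700 pool 2. The intestinal factor gene cdx1b fell (log2 -0.69 ± 0.21, adjusted p = 0.0488), a call lost without control pool 1 or 2 or TWP 700 pool 2 or 3. Without 1 pool the higher count was 1 in the absence of control pool 1 or 3 or TWP 700 pool 2 or 3. The lower count was 2 without control pool 1, 1 without TWP 700 pool 2, 2 with library totals, and 9 without control pool 2 and TWP 700 pool 1 together.

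Markers of tissues in which UGT genes are used are given beside these counts, and of all genes tested 7.87% were called higher and 7.29% lower. Of 12 enterocyte markers 4 (33.3%) were called higher, among them apoa4a (log2 2.39 ± 0.18, adjusted p = 2.09e-05) and lct (log2 1.29 ± 0.19, adjusted p = 0.00171), and 1 lower, cdx1b. Their summed level was 2237, 2717 and 2532 CPM in TWP 700 pools 1 to 3, against 1961, 1258 and 2428 CPM in control pools 1 to 3, with overlap. Of 16 hepatocyte markers 2 (12.5%) were called higher, tfa (log2 0.90 ± 0.15, adjusted p = 0.00288) and apobb.1 (log2 0.63 ± 0.18, adjusted p = 0.0398, lost without any 1 pool), and 1 lower, hpda (log2 -1.03 ± 0.16, adjusted p = 0.00215). The lower count was 4 without control pool 2, 2 without TWP 700 pool 1, 7 without both and 5 with DESeq2. The summed level was between 11197 and 11637 CPM in the TWP 700 pools and between 9695 and 10484 CPM in the control pools. Of this apobb.1 held 4486 ± 572 CPM in the TWP 700 pools and 2907 ± 372 CPM in the control pools, while 11 of the 16 markers had a log2 fold change below 0 and the median was -0.22. Of 15 kidney tubule markers 2 (13.3%) were called higher, slc34a1a (log2 1.63 ± 0.32, adjusted p = 0.0076) and cdh17 (log2 0.77 ± 0.13, adjusted p = 0.00245), with a sum of 669 to 749 CPM in the TWP 700 pools and 551 to 693 CPM in the control pools. None of the 15 was called lower by any of the 3 tools, with 0 at an unadjusted p under 0.05 and 1 called without control pool 2 and TWP 700 pool 1 together. Of 7 olfactory markers tested 0 were called in either direction by all 3 tools, with 0 at an unadjusted p under 0.05, and the most abundant was gng13b (log2 0.08 ± 0.11, adjusted p = 0.664). The olfactory markers summed to 40.3 to 44.4 CPM in the TWP 700 pools and 40.7 to 43.7 CPM in the control pools. Every marker of these lists had at least 1 read in each pool, as did all genes of the table. The part of these tissues in the UGT values was not tested.

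Control pool 2 was the lowest of the controls in 28 of the 40 UGT genes. Among the 38 tested this share was 73.7%, against 39.5% of all genes tested. The summed UGT level was 371, 407 and 362 CPM in TWP 700 pools 1 to 3, against 255, 205 and 288 CPM in control pools 1 to 3. Control pool 2, with the lowest UGT sum, also had the lowest control sum of the enterocyte, hepatocyte and kidney tubule markers and of the sulfotransferase and glutathione transferase genes, and control pool 3 the highest of each. Control pool 2 was lowest as well in the lists for UDP-glucuronic acid supply, heme breakdown and regulators. It was highest in the efflux list, at 714 CPM against 653 and 664 CPM in control pools 1 and 3. In the lists for glucuronide removal, sugar chains, olfactory markers and myelin it was not the lowest control. Without control pool 2 the median log2 fold change of the UGT genes was 0.40 and 15 were called higher. Without control pool 3 it was 0.71 and 18 were called higher.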

How the data were processed

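RNA of 6 pools of 80 larvae, 3 per group, was measured. Per the labels' protocols, a stranded kit that removes ribosomal RNA was used on RNA with an integrity number over 7.0. The submitters' processing notes name HISAT2, StringTie 2.1.3b, DESeq2 and, as build, GRCz11. The sources used here do not give how reads were counted, whether strand was used, or how reads in shared exons were assigned, so overlapping, antisense and near-identical UGT genes are uncertain. Per the file headers, the authors gave counts, TPM and FPKM per gene. The deposited counts are whole numbers of at least 1 in every sample, so genes at 0 in a sample were not analysed here. The deposited TPM values served for levels between genes and for sums. The deposited FPKM values served as an alternative to TPM.

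The test was edgeR 4.0.16 (R 4.3.3) on the counts: filterByExpr by group, TMM, and the robust quasi-likelihood F test, with p-values of all 23761 genes left by the filter adjusted after Benjamini and Hochberg. The SE is the log2 fold change divided by the square root of F. A count of 3 corresponds to 0.0623 to 0.0817 CPM. The main edgeR test was tried on simulated counts. Genes were drawn independently there, so reads shared among neighbouring genes were not covered. Replicates differed by more than sampling noise, with chi-square per degree of freedom of at least 8.56. The labels state a repeated exposure but not how pools relate to it, so p-values measure the spread between these pools.

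Each result was recomputed with DESeq2 1.42.0 and limma-voom 3.58.1, with scaling by RLE, upper quartiles or library totals, without a filter and with 1 CPM in 3 samples, without the robust option, at a threshold of 0.01, with a replicate block, and without each pool. Leaving out control pool 2 and TWP 700 pool 1 together was chosen after seeing the data. UGT genes, 13 gene lists and tests were chosen with earlier results of these data known. Of 188 list symbols 181 matched the table. The naming rule took every called UGT gene, the 3 most abundant of each family, up to 2 called genes per direction of each list and 8 preset genes. Other UGT genes, and hmox2b, mbpa, keap1a, ahr1b, arnt2 and hnf1bb, were named after their values were seen. Also outside the rule were pgm2, slc35d1b, uxs1, abcc4, abcb4, abcb5, abcb11a and abcb11b, named with the values known. Protein and promoter sequences were not used here.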

Additional observations from a re-analysis of the deposited data

How the results depend on the processing

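Over the UGT genes tested, 644 values were compared under the alternatives. At the threshold of 0.01 the fold changes were those of the main fit, so only calls could change there. Of the 644 values 589 kept their direction and their side of the threshold, 30 lost the call, 17 gained one and 8 changed sign. All sign changes were in UGT genes that were not called. Scaled by library totals alone, all genes had a median log2 of 0.13, all genes called were 2809 higher and 868 lower, UGT genes called higher were 22, and ugt1 genes called higher were 9. At an adjusted p under 0.01 all genes called were 796 higher and 692 lower, and 12 UGT genes, 2 of them ugt2, were called. With 1 pool left out, calls ranged from 970 to 2063 higher and from 896 to 1996 lower over all genes, and from 0 to 1 lower over UGT and over ugt1 genes. Without control pool 2 and TWP 700 pool 1 together 2606 genes were called lower. Signs turned for ugt2a5 (log2 0.022), ugt5a5 (0.041) and ugp2b (0.025) with library totals. They also turned with 1 pool left out for ugt2a3 (-0.075 to 0.28, lowest without control pool 2), ugt5g1 (-0.14 to 0.14, with -0.14 without control pool 2 and -0.066 without TWP 700 pool 3), ugt5a5 (-0.24 to 0.0015, highest without control pool 3), ugt5c2 (-0.087 to 0.25, lowest without TWP 700 pool 2) and gusb (-0.067 to 0.16, with -0.056 without control pool 1, -0.067 without control pool 3, -0.019 without TWP 700 pool 1 and -0.020 without TWP 700 pool 2), and for ugt5g1 without control pool 2 and TWP 700 pool 1 together (-0.096). The cause was not tested. Same-numbered pools did not deviate together (correlations of -0.046, -0.10 and 0.031), and with the replicate block 14 UGT genes were called higher, 13 of them among the original 17. Counting reads limits ugt1b3, ugt1b4, ugt1b6p and ugt5g2, which had few reads in at least 1 group.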
